A study of Xenopus laevis with 79 samples.

Results

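At trunk level of the early neurula, the posterior neural border was compared with the posterior nonneural ectoderm beside it. The comparison rests on the 8 libraries, of 79 in the series, whose labels give St. 14 and 1 of these regions: 5 of the posterior neural border (NBp) and 3 of the posterior nonneural ectoderm (NNEp). The series is an atlas of transcripts in the ectoderm of Xenopus laevis, an allotetraploid frog in which many genes are kept as an L and an S copy (homeologs). Embryos were wild type and made by in vitro fertilization, and each library came from a fragment of ectoderm cut from 1 embryo, so that a library is a small piece of tissue with all its cell types and not a sorted population. The 3 NNEp libraries came from 2 embryos (replicates 2 and 3 share an embryo). For 2 NBp libraries the labels give no embryo number. The p-values therefore measure the spread between libraries and not between embryos. That spread was estimated jointly over NBp, NNEp, and the other St. 14 regions in the fit, not from these 8 libraries alone. Fragments were chosen by the authors from quantitative PCR of a few marker genes, among them sox2, epidermal keratin, pax3, snai2, and myod1, so the levels of these genes describe the choice as well as the tissue.

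The neural border is the strip of ectoderm between the neural plate and the future epidermis. It gives rise to the neural crest, a migratory population that forms pigment cells, peripheral neurons and glia, and much of the skeleton of the head, and, at trunk level, to dorsal neural tube cells and primary sensory neurons. Border cells form where BMP signals are intermediate and Wnt and FGF signals are present, and they are marked by transcription factors of the Zic, Pax3/7, Msx, and Tfap2 families. Nonneural ectoderm under strong BMP signals becomes the larval epidermis, with keratin-rich surface cells and, intercalating from the inner layer, multiciliated cells, ionocytes, and secretory cells.

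The 8 libraries held 11,145,930 to 15,313,773 fragments counted on loci, with 21,604 to 25,447 loci detected per library. No pair of libraries was a duplicate. The 3 NNEp libraries resembled each other (r of log2 CPM across loci 0.912 to 0.975), and so did NBp replicates 1, 3, 4, and 5 (0.888 to 0.944), while NBp replicate 2 stood apart from the rest of its group (0.781 to 0.850). NBp replicate 2 also went against its posterior label. Its summed level of hox6 to hox13 transcripts, which mark the trunk and tail, was 24.3 CPM (counts scaled to a common library size), against 643 to 1569 CPM in the other NBp libraries, 121 to 321 CPM in NNEp, and a mean of 8.62 CPM in the anterior neural border (NBa) of the same stage. For this reason the results below are given for the 5 libraries as labelled, and those that rest on this library also without it. All NNEp libraries and NBp replicates 2 and 4 carry the library prefix B108, whereas NBp replicates 1, 3, and 5 carry B100. Prefix and region are therefore partly confounded.

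The dissection markers differed between the regions at some loci and did not pass at others. For sox2.1, a neural transcription factor, the NBp libraries had 108.3, 7.72, 182, 89.2, and 147 CPM and the NNEp libraries 3.31, 1.52, and 2.51 CPM. Every border library lay above every nonneural library, with replicate 2 the lowest of the border. The log2 fold change was 5.45 ± 0.89 (SE; edgeR, adjusted p = 9.48e-05). Keratin loci were counted here among the dissection markers, and whether they match the keratin that the authors measured was not checked. For the epidermal keratin krt5.7.l, NBp had 3373, 1498, 3126, 2813, and 1005 CPM and NNEp 12268, 11269, and 17046 CPM. The groups did not overlap, and the log2 fold change of -2.52 ± 0.84 passed narrowly (adjusted p = 0.0224). The call was lost without NBp replicate 5 (-2.32, adjusted p = 0.0549), without NNEp replicate 3 (-2.31, adjusted p = 0.0673), and with the embryo as a block (-0.43, adjusted p = 0.832). The keratin loci krt5.7.s and krt12.s, also counted here among the dissection markers, did not pass (adjusted p = 0.0510 and 0.0989). Their groups did not overlap either. The myogenic factor myod1.s, a sign of attached mesoderm, was low in both regions, with 4.18, 3.14, 2.99, 3.30, and 0.275 CPM in NBp and 0.200, 0.0948, and 0.304 CPM in NNEp. It was higher in 4 of 5 border libraries than in any nonneural library, and its log2 fold change was 3.70 ± 1.08 (adjusted p = 0.0102). The L copy, myod1.l, overlapped between the regions and did not pass (1.49, adjusted p = 0.215).

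Among 22,143 loci tested, 7913 (35.7%) differed between NBp and NNEp at a false discovery rate (FDR) of 0.05, of which 3934 (17.8% of loci tested) were higher and 3979 (18.0%) lower in the border. The median log2 fold change of all tested loci was 0.12. In a bulk fragment, fewer cells of a type and less RNA per cell cannot be told apart, so every difference given here is a difference in the RNA of the fragment. Without NBp replicate 2, 7905 of 22,126 loci (35.7%) passed, 4001 (18.1%) higher and 3904 (17.6%) lower, and 7169 loci passed in both fits with the same sign. All 7913 loci kept their sign without this library. With the embryo as a block, 3177 loci (14.3%) passed, 1777 (8.03%) higher and 1400 (6.32%) lower, and 7905 of the 7913 loci kept their sign. With only the libraries of prefix B108, 4718 loci (21.6%) passed, 2756 (12.6%) higher and 1962 (8.98%) lower. Only 1 embryo gave both fragments, and its border library is replicate 2, so that the block draws this contrast mainly from that pair and from the other regions of the same embryos.

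**Figure D1:**
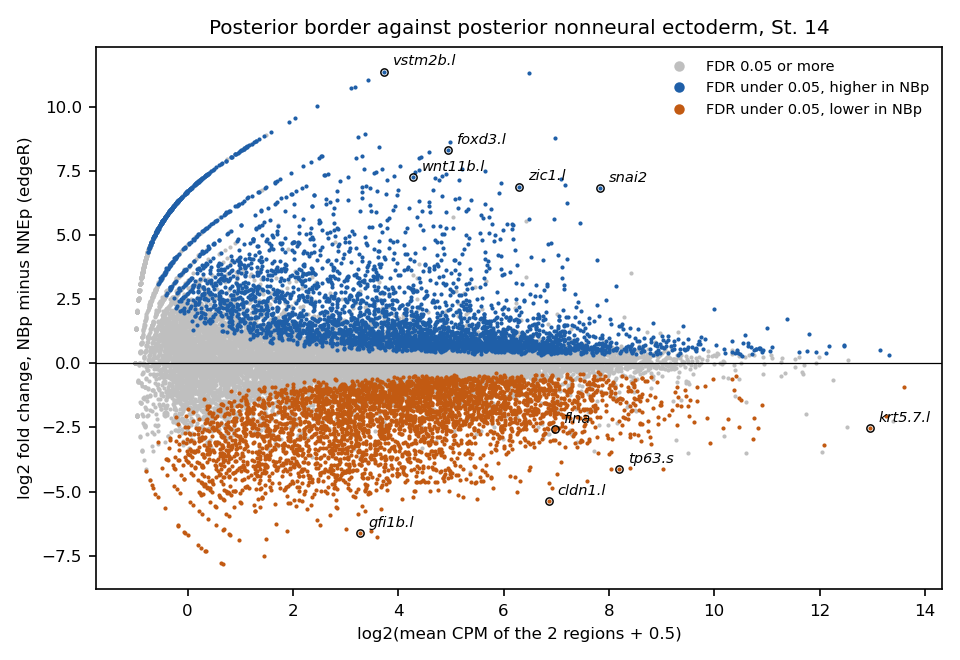
Log2 fold change of each tested locus (NBp minus NNEp, edgeR) against its level in the regions, log2 of mean CPM plus 0.5. Blue points are the 3934 loci higher and orange points the 3979 loci lower in the border at an FDR of 0.05, and the circled loci are named. Differences of more than 2.5 log2 units occurred in both directions. The curved rows of points at upper left are loci with 0 or very few counts in NNEp, whose fitted values have no exact size.

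Border specifiers were among the loci that separated the tissues most clearly. Of 41 tested loci in the list of border genes, 25 were higher (61.0%, against 17.8% of all loci) and 1 was lower in NBp. The median log2 fold change was 2.92, against 0.12 for all loci. The counts were 24 higher and 1 lower without NBp replicate 2, and 23 and 0 with the embryo block. For pax3 (xelaev18027783m.g), which encodes a paired-box factor of the border and crest, NBp had 206, 142, 328, 261, and 300.2 CPM and NNEp 17.6, 2.08, and 19.6 CPM. The groups were well apart, and the log2 fold change was 4.23 ± 0.64 (adjusted p = 4.04e-05). The zinc finger gene zic1.l, which acts with pax3 in crest induction, had 55.8, 199, 68.3, 252, and 201 CPM in NBp and 2.61, 0.853, and 0.533 CPM in NNEp. Border replicates 1 and 3 were lower than the other 3, yet all lay far above the nonneural libraries, with a log2 fold change of 6.89 ± 0.74 (adjusted p = 1.43e-06; 7.81 without NNEp replicate 1).

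The related gene zic5 was alike in direction. The L copy had a mean of 68.2 ± 23.8 CPM (SD, n = 5) in NBp and 1.03 ± 0.531 CPM (SD, n = 3) in NNEp, a log2 fold change of 6.06 ± 0.62 (adjusted p = 8.13e-07). The homeobox gene msx2.s, a BMP target used early at the border, was already well expressed in nonneural ectoderm, with 29.3, 29.8, and 41.8 CPM in NNEp against 267, 169.8, 327, 232, and 240.0 CPM in NBp. Its log2 fold change was accordingly smaller, at 2.88 ± 0.48 (adjusted p = 0.000123). The transcriptional repressor hes4 (xelaev18035571m.g), which holds border cells in a progenitor state, had a mean of 201 ± 50.2 CPM in NBp and 24.6 ± 3.17 CPM in NNEp (log2 fold change 3.03 ± 0.32, adjusted p = 1.13e-06). Loci of egr4, gdf6, lmx1b.1, msx1, mycn, sp5, tfap2b, and zic4 also passed with higher levels in NBp.

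Some border genes were not higher in the border than in the epidermis. A border locus that passed in the opposite direction was the zinc finger gene sp7.l, with 201, 159.6, 272, 219, and 189 CPM in NBp and 562, 556, and 503 CPM in NNEp. No border library reached the nonneural levels, and the log2 fold change was -1.38 ± 0.37 (adjusted p = 0.00549), which did not pass with the embryo block (-1.22, adjusted p = 0.126). Loci of tfap2a, klf17, meis3, prdm1, and znf703 were tested and did not pass. Some of these factors, tfap2a among them, are known from both border and epidermis.

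**Figure D2:**
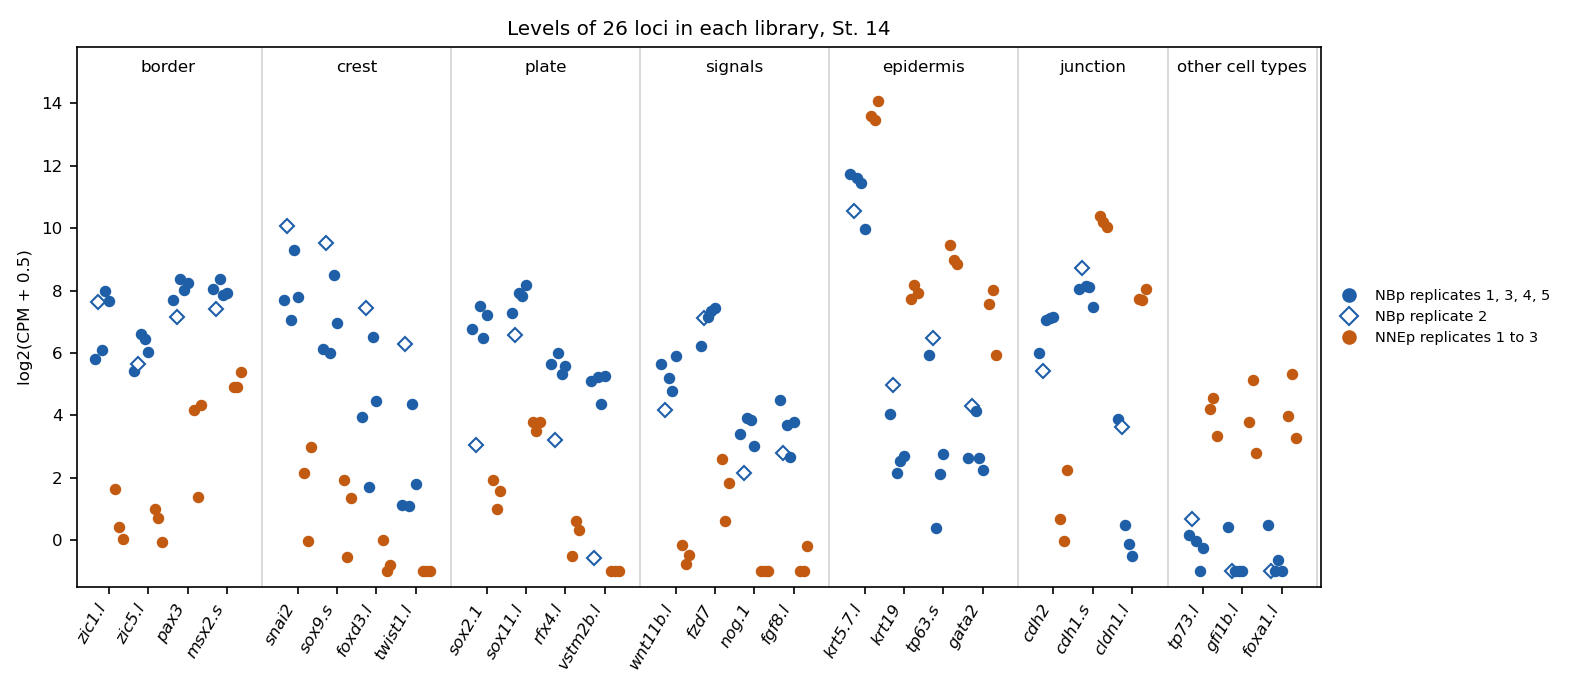
Level of 26 loci in each of the 8 libraries, as log2 of CPM plus 0.5, grouped by known role. Blue circles are NBp replicates 1, 3, 4, and 5, the open diamond is NBp replicate 2, and orange circles are the 3 NNEp libraries. For most of these loci the regions do not overlap, but some were named by a rule that required no overlap. Over all tested loci, 14.7% were higher and 18.2% lower in NBp without overlap. NBp replicate 2 is the highest border library for snai2, sox9.s, foxd3.l, and twist1.l and the lowest for sox2.1, rfx4.l, and vstm2b.l.

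Neural crest specifiers were higher in the border and varied more among its libraries than the border genes did. Of 35 tested loci, 23 were higher (65.7%, against 17.8% of all loci) and 1 lower in NBp (median log2 fold change 4.20). Without NBp replicate 2 these counts were 18 and 2, and with the embryo block 19 and 0. Summed over the list, NBp replicate 2 held 6922 CPM and replicate 4 held 4571 CPM, whereas replicates 1, 3, and 5 held 2151 to 2667 CPM and the NNEp libraries 846 to 893 CPM. The repressor snai2 (xelaev18031998m.g), a driver of the epithelial to mesenchymal transition, had 209, 1066, 133, 630.3, and 219 CPM in NBp and 3.91, 0.474, and 7.38 CPM in NNEp. Even the lowest border library lay far above the nonneural ones. The log2 fold change was 6.83 ± 1.23 (adjusted p = 0.000244), or 6.24 without NBp replicate 2 and 7.68 without NNEp replicate 3.

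The SoxE factor sox9.s, required for crest specification, had 69.6, 732, 62.8, 357, and 125 CPM in NBp and 3.31, 0.190, and 2.05 CPM in NNEp. The difference again held in every library, with a log2 fold change of 7.18 ± 1.15 (adjusted p = 7.70e-05), or 6.38 without NBp replicate 2 and 7.84 without NNEp replicate 1. The forkhead gene foxd3.l, which keeps crest cells multipotent, had 15.0, 173, 2.75, 90.3, and 21.3 CPM in NBp and 0.501, 0, and 0.0761 CPM in NNEp. Border levels spanned more than an order of magnitude, and its log2 fold change was 8.31 ± 1.59 (adjusted p = 0.000403), or 7.42 without NBp replicate 2 and 10.20 without NNEp replicate 1. The bHLH gene twist1.l, which is expressed in crest about to migrate and in mesoderm, had 1.67, 76.8, 1.62, 20.0, and 2.96 CPM in NBp and was not counted in NNEp. Set against a floor of 3 counts over the NNEp libraries, it was at least 213-fold higher in the border (adjusted p = 0.000696), or at least 75.2-fold without NBp replicate 2 (adjusted p = 0.000855) and 130-fold without NNEp replicate 3, and its level in replicates 1, 3, and 5 stayed under 3 CPM. The receptor gene pdgfra (xelaev18009061m.g), which is used by migrating crest and by mesoderm, followed the same order of libraries, with 10.1, 155, 4.60, 62.9, and 12.9 CPM in NBp and 0.601, 0.0948, and 0.609 CPM in NNEp (log2 fold change 6.77 ± 1.22, adjusted p = 0.000247, or 5.66 without NBp replicate 2). In snai2, sox9.s, foxd3.l, twist1.l, and pdgfra alike, replicate 2 was the highest and replicate 4 the next of the border libraries. Replicates 2 and 4 are the border libraries of prefix B108, and replicates 1, 3, and 5 carry B100. Among border libraries this order, also that of the list sums, thus cannot be told apart from the prefix.

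Neural plate genes were higher in the border for most loci. Of 53 tested loci, 42 were higher (79.2%, against 17.8% of all loci) and 0 lower in NBp. The median was 4.00 (3.72 with loci at 0 in 1 region set to their bound). Of the 11 that did not pass, loci of foxb1, irx2, irx3, nes, nrcam, tubb2b, and vcan are examples, mostly second copies of genes whose other copy passed. The counts were 43 and 0 without NBp replicate 2, but 23 and 2 with the embryo block. The summed level of the list was 1034 CPM in NBp replicate 2 and 2318 to 4361 CPM in the other border libraries, against 390 to 499 CPM in NNEp. For the SoxC gene sox11.l, a promoter of neuronal differentiation, NBp had 156, 95.4, 241, 225, and 291 CPM and NNEp 13.3, 10.9, and 13.2 CPM. The groups did not overlap (log2 fold change 4.01 ± 0.51, adjusted p = 6.19e-06).

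The zinc finger gene zeb2 (xelaev18044550m.g), a repressor active in neural and crest cells, had 113, 29.6, 115, 101, and 131 CPM in NBp and 0.301, 0.379, and 3.12 CPM in NNEp. It differed by 6.20 ± 0.89 log2 units (adjusted p = 2.50e-05; 8.14 without NNEp replicate 3). The forkhead gene foxd4l1.1.l, which maintains an immature neural ectoderm, had 42.6, 0.254, 33.8, 17.4, and 25.6 CPM in NBp and 0.100, 0.0948, and 0 CPM in NNEp, a ratio of 413 (95% counting interval 114 to 3416, adjusted p = 0.000974), or 252 (69.7 to 2083) without NNEp replicate 3. Border replicate 2 was close to the nonneural level. The same library was the lowest for rfx4.l, which encodes a regulator of ciliary and neural tube genes, with 49.2, 8.82, 63.7, 39.8, and 47.9 CPM in NBp and 0.200, 1.04, and 0.761 CPM in NNEp (log2 fold change 5.93 ± 0.87, adjusted p = 2.83e-05). It was also nearly devoid of vstm2b.l, a gene for an immunoglobulin-domain membrane protein, with 33.5, 0.170, 36.8, 20.1, and 37.8 CPM in NBp and none in NNEp (at least 296-fold higher, adjusted p = 0.000168, or 180.3-fold without NNEp replicate 3). The bHLH gene olig4.l, of the dorsal neural territory, was present in all 5 border libraries at 315, 136, 310.4, 197, and 298 CPM, against 1.40, 0.379, and 0 CPM in NNEp. Its log2 fold change was 8.79 ± 1.81 (adjusted p = 0.000771), or 10.43 without NNEp replicate 1 and 8.15 without NNEp replicate 3.

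Genes of primary neurogenesis, including those of the trunk sensory neurons that arise in the border, were also higher in NBp. Of 37 tested loci 23 were higher (62.2%, against 17.8% of all loci) and 0 lower. The median was 3.41, or 3.30 with loci at 0 set to their bound. The counts were 24 and 0 without NBp replicate 2 and 7 and 0 with the embryo block. The proneural gene neurog2 (xelaev18009356m.g) had 31.6, 3.56, 26.4, 10.7, and 31.8 CPM in NBp and 0.100, 0, and 0.685 CPM in NNEp. Its log2 fold change was 6.16 ± 1.26 (adjusted p = 0.000732; 8.49 without NNEp replicate 3). The neuronal RNA-binding protein gene elavl3 (xelaev18004445m.g) had 138, 54.6, 157, 147, and 87.9 CPM in NBp and 9.72, 5.87, and 15.4 CPM in NNEp, so that it too separated the groups (3.49 ± 0.80, adjusted p = 0.00189, and 0.0626 with the embryo block). Loci of neurod1, neurog1, neurog3, isl1, ebf2, myt1, prph, and tubb3 also passed as higher.

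Epidermal regulators showed the reverse, though fewer of them passed. Of 43 tested loci, 0 were higher and 16 lower (37.2%, against 18.0% of all loci) in NBp, with a median of -1.12. The counts were 1 and 14 without NBp replicate 2 and 0 and 3 with the embryo block, where 6.32% of all loci were lower. The gene of the basal epidermal factor p63, tp63.s, had 60.3, 88.7, 0.808, 3.86, and 6.34 CPM in NBp and 703, 500.2, and 460.5 CPM in NNEp. Border replicates 1 and 2 held far more than the other 3, yet no border library reached the nonneural levels. The log2 fold change was -4.12 ± 0.96 (adjusted p = 0.00216; -4.94 without NBp replicate 2). The BMP target gata2 (xelaev18025905m.g) had 5.64, 19.0, 17.1, 5.75, and 4.27 CPM in NBp and 188, 260.3, and 60.3 CPM in NNEp (-4.04 ± 0.86, adjusted p = 0.00100, and 0.113 with the embryo block).

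The Ets gene elf1 (xelaev18015751m.g) had a mean of 27.6 ± 9.40 CPM in NBp and 144 ± 11.5 CPM in NNEp (-2.38 ± 0.55, adjusted p = 0.00202, and 0.146 with the embryo block). The zinc finger gene ovol2.l, a guardian of the epithelial state, had means of 5.04 ± 1.17 and 23.2 ± 6.83 CPM (-2.20 ± 0.47, adjusted p = 0.00104, and 0.126 with the embryo block). Loci of dlx3, elf3, gata3, grhl1, grhl2, and klf5 were lower as well. By contrast tfap2c (xelaev18046210m.g), a factor shared by border and epidermis, had 304, 697, 227, 500.4, and 409 CPM in NBp and 895, 519, and 374 CPM in NNEp. The groups overlapped, and the log2 fold change of -0.48 ± 0.53 did not pass (adjusted p = 0.508; 0.02 with the embryo block).

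Keratins and desmosome genes were lower in NBp for 25 of 39 tested loci (64.1%, against 18.0% of all loci). They were higher for 1, a copy of dsc3 (median -1.98). The counts were 21 lower and 2 higher without NBp replicate 2, and 5 lower and 1 higher with the embryo block. Their summed level was 9441 to 22046 CPM in NBp and 62115 to 89409 CPM in NNEp. Epidermal keratin RNA was thus lower, not lacking, in the border fragments. The keratin gene krt8.l had 550.4, 482, 483, 434, and 269 CPM in NBp and 2142, 2145, and 1789 CPM in NNEp, a log2 fold change of -2.19 ± 0.43 (adjusted p = 0.000573, and 0.120 with the embryo block). Farther apart was krt19 (xelaev18043110m.g), with 15.8, 30.7, 3.96, 5.33, and 5.92 CPM in NBp and 210.3, 288, and 241 CPM in NNEp. Its difference of -4.32 ± 0.67 (adjusted p = 5.76e-05; -4.97 without NBp replicate 2) held with the embryo block. The desmoplakin gene dsp.s, whose product anchors keratin at desmosomes, had means of 186 ± 57.2 CPM in NBp and 791 ± 172 CPM in NNEp (-2.09 ± 0.34, adjusted p = 8.72e-05). The abundant larval keratins krt12.s (1392 ± 633 against 5454 ± 1508 CPM) and krt5.7.s (3766 ± 1502 against 17910.0 ± 3319 CPM) did not pass, with adjusted p of 0.0989 and 0.0510.

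Junction genes were divided between the tissues. Of 54 tested loci of cadherins, claudins, and tight junction genes, 17 were higher (31.5%, against 17.8% of all loci) in NBp. Another 14 were lower (25.9%, against 18.0%), and the median was 0.56. The counts were 19 and 12 without NBp replicate 2 and 7 and 4 with the embryo block. The N-cadherin gene cdh2 (xelaev18031953m.g), typical of neural tissue, had 63.0, 41.9, 131, 138, and 143 CPM in NBp and 1.10, 0.474, and 4.26 CPM in NNEp. Its log2 fold change was 5.69 ± 0.77 (adjusted p = 1.30e-05; 7.04 without NNEp replicate 3). A second cdh2 locus (xelaev18033674m.g) differed by 3.90 ± 0.72 (adjusted p = 0.000306). The E-cadherin gene cdh1.s, typical of surface epithelium, had 266, 419, 285, 279, and 175 CPM in NBp and 1327, 1175, and 1055 CPM in NNEp. Both cadherins thus separated the tissues without overlap and in opposite directions (cdh1.s: -2.06 ± 0.42, adjusted p = 0.000700, and 0.0825 with the embryo block).

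The claudin gene cldn1.l, of tight junctions, had 14.1, 11.9, 0.889, 0.421, and 0.207 CPM in NBp and 212, 205, and 262 CPM in NNEp. Only border replicates 1 and 2 held more than 1 CPM, and the difference was -5.36 ± 1.24 (adjusted p = 0.00202; -6.12 without NBp replicate 1). Protocadherins also divided. The neural protocadherin gene pcdh19 (xelaev18042154m.g) had 48.3, 0.424, 69.6, 36.3, and 77.6 CPM in NBp and 0.701, 0.474, and 0.761 CPM in NNEp, so that replicate 2 alone lay below the nonneural range (6.14 ± 1.19, adjusted p = 0.000460). In contrast pcdh7.s, known as NF-protocadherin of the frog epidermis, had 7.25, 13.1, 17.9, 21.0, and 8.82 CPM in NBp and 176, 165, and 34.4 CPM in NNEp (-3.20 ± 0.69, adjusted p = 0.00109, and 0.0774 with the embryo block). The epithelial adhesion gene epcam.s did not pass, at 932 ± 194 against 1368 ± 151 CPM (adjusted p = 0.133).

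The cytoskeletal genes flna and myh9 were among the loci with the smallest p. The actin crosslinker filamin A gene flna (xelaev18041763m.g) had 33.3, 40.5, 31.7, 30.2, and 45.5 CPM in NBp and 302, 259, and 80.5 CPM in NNEp. Border libraries were close together and all below the nonneural ones, with a log2 fold change of -2.56 ± 0.27 (adjusted p = 1.17e-06). The nonmuscle myosin heavy chain gene myh9.s had 34.1, 17.6, 26.9, 33.4, and 24.9 CPM in NBp and 184, 231, and 149 CPM in NNEp (-2.78 ± 0.31, adjusted p = 1.55e-06). The gene steap1.l, for a membrane protein of the STEAP family and among the largest differences, had 0.279, 0.594, 0, 0.140, and 0 CPM in NBp and 17.1, 20.8, and 30.7 CPM in NNEp (-6.79 ± 1.36, adjusted p = 0.000618; -7.60 without NBp replicate 2).

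**Figure D3:**
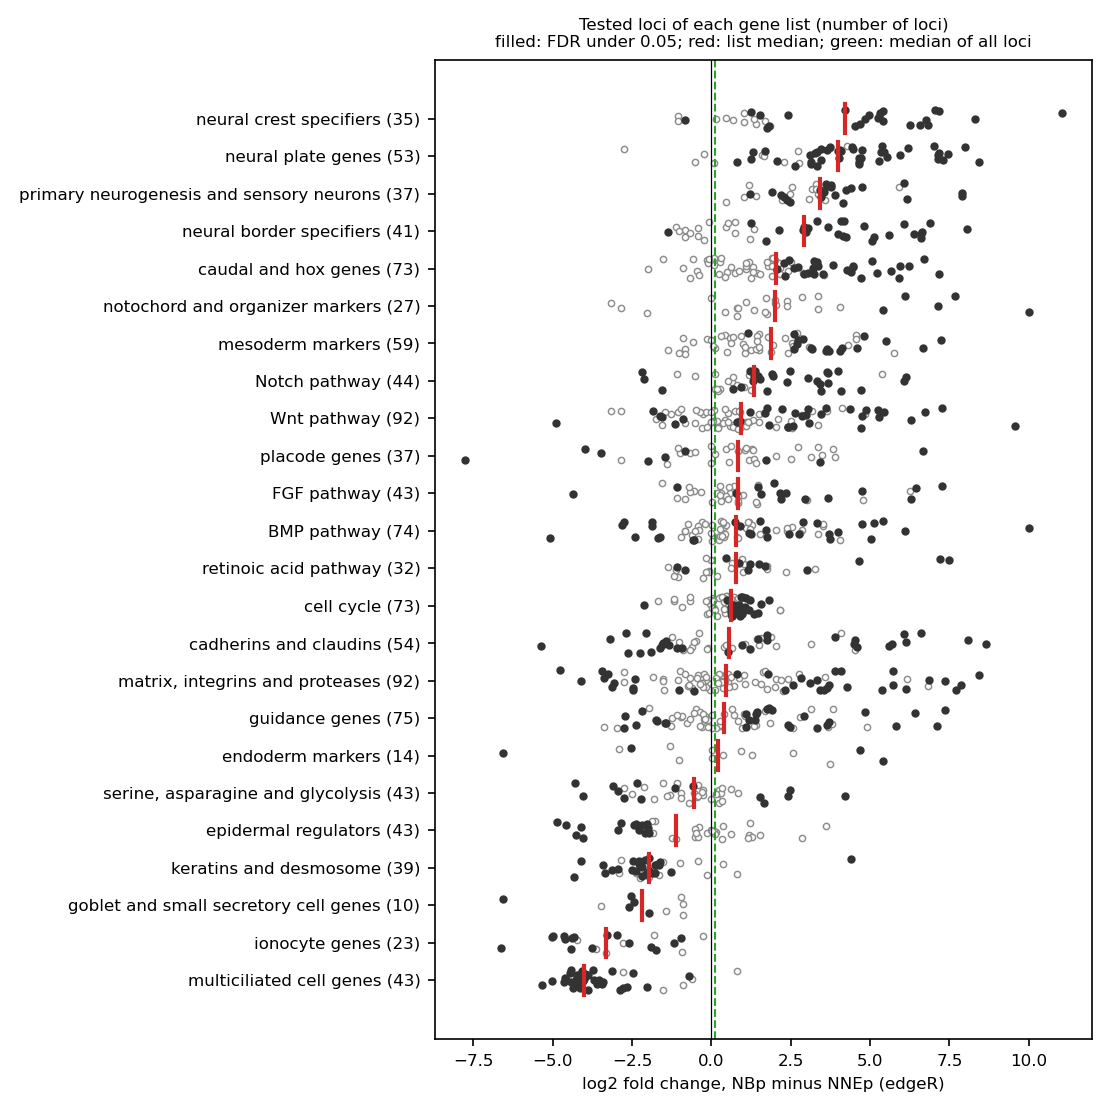
Log2 fold change (NBp minus NNEp, edgeR) of each tested locus in 24 gene lists, with the number of loci beside each name. Filled points passed an FDR of 0.05, red bars are list medians, and the green line is the median of all loci, 0.12. Crest, plate, neurogenesis, and border lists lie to the right, multiciliated cell, ionocyte, secretory, and keratin lists to the left, and signalling lists are spread on both sides.

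Genes of multiciliated cells, which beat fluid over the embryo's skin, were the most uniformly lower in the border. Of 43 tested loci 38 were lower (88.4%, against 18.0% of all loci) and 0 higher in NBp, with a median of -4.01. The counts were 38 and 1 without NBp replicate 2 and 17 and 0 with the embryo block. The list summed to 182 to 393 CPM in NBp and 1516 to 1839 CPM in NNEp. At the top of the cell type's regulatory cascade, tp73.l had 0.627, 1.10, 0.485, 0, and 0.344 CPM in NBp and 17.8, 22.9, and 9.59 CPM in NNEp (-5.03 ± 0.85, adjusted p = 0.000132). The cell cycle regulator gene myb.s, which acts in multiciliated progenitors, had 0.627, 0.933, 0, 0, and 0 CPM in NBp and 13.2, 15.8, and 9.43 CPM in NNEp (-5.35 ± 1.18, adjusted p = 0.00133; -6.23 without NBp replicate 2). Both were near 0 in the border. The forkhead gene foxn4.l was retained at a low level, with means of 5.92 ± 1.77 CPM in NBp and 40.7 ± 21.4 CPM in NNEp (-2.78 ± 0.44, adjusted p = 7.76e-05). The intraflagellar transport gene ift88.s, used for every cilium, had 6.06, 12.9, 5.01, 6.52, and 5.51 CPM in NBp and 43.7, 43.3, and 48.9 CPM in NNEp (-2.65 ± 0.29, adjusted p = 1.61e-06), with replicate 2 the highest of the border.

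Ionocyte genes are for the cells that move acid and ions across the skin. Of 23 tested loci, 16 were lower (69.6%, against 18.0% of all loci) and 0 higher (median -3.32, or -3.48 with loci at 0 set to their bound). They numbered 19 and 0 without NBp replicate 2 and 3 and 0 with the embryo block. Loci of foxi1, the regulator that specifies ionocytes, and of ubp1, atp6v1g3, and scnn1a were among those that passed. The proton pump subunit gene atp6v1c2.l had 3.34, 12.5, 0, 0.421, and 0.551 CPM in NBp and 95.1, 103, and 52.9 CPM in NNEp. Border replicates 1 and 2 held the only levels above 1 CPM. The log2 fold change was -4.65 ± 1.13 (adjusted p = 0.00290; -6.24 without NBp replicate 2; adjusted p = 0.0714 with the embryo block). The carbonic anhydrase gene ca12.l showed the same order, with 4.67, 11.7, 0.485, 0.280, and 0.344 CPM in NBp and 72.1, 107.6, and 75.5 CPM in NNEp (-4.61 ± 1.31, adjusted p = 0.00846; -5.85 without NBp replicate 2; adjusted p = 0.113 with the embryo block). The pendrin gene slc26a4 (xelaev18020998m.g), of base-secreting ionocytes, did not pass with all libraries (-4.25 ± 1.73, adjusted p = 0.0586) and did without NBp replicate 2 (-6.98, adjusted p = 0.00933).

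The transcription factor genes gfi1b and foxa1 were at or near 0 in the border. The zinc finger gene gfi1b.l had 0.836, 0, 0, 0, and 0 CPM in NBp and 13.4, 34.7, and 6.39 CPM in NNEp, a log2 fold change of -6.64 ± 1.13 (adjusted p = 0.000215; -5.77 without NNEp replicate 2). Without NBp replicate 1, no counts of gfi1b.l remain in NBp, so the fitted value of -10.86 has no exact size. The forkhead gene foxa1.l, in the lists of small secretory cells and of endoderm, had 0.906, 0, 0, 0.140, and 0 CPM in NBp and 15.1, 39.4, and 9.28 CPM in NNEp. Its log2 fold change was -6.56 ± 1.29 (adjusted p = 0.000517), or -8.82 without NBp replicate 1 and -5.76 without NNEp replicate 2. In the anterior nonneural ectoderm the means were 0 CPM for gfi1b.l and 0.565 CPM for foxa1.l. In the posterior neural plate foxa1.l had a mean of 4.36 CPM. NBp replicate 1 was the highest border library and NNEp replicate 2 the highest nonneural library for both genes. Of 10 tested loci of goblet and small secretory cells, 5 were lower (50%, against 18.0% of all loci) and 0 higher (median -2.20). The counts were 3 and 0 without NBp replicate 2 and 1 and 0 with the embryo block. The intelectin gene itln1.l, a product of goblet cells, had 433, 107.7, 363, 317, and 56.3 CPM in NBp and 2208, 2368, and 4035 CPM in NNEp. Its groups did not overlap, yet it did not pass (-3.49 ± 1.42, adjusted p = 0.0563; 0.49 with the embryo block).

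Hox genes, which with caudal genes give cells their position along the head to tail axis, differed between neighbouring tissues of the same nominal level. Of 73 tested caudal and hox loci, 28 were higher (38.4%, against 17.8% of all loci) and 0 lower in NBp (median 2.02). The counts were 37 and 0 without NBp replicate 2. All loci called in these fits were hox loci, and no caudal locus passed in either. With the embryo block 3 of the list were higher and 0 lower. Under that block 8.03% of all loci were higher. By paralogue group, the median log2 fold change was between -0.03 and 2.64 in groups 1 to 5, between 2.14 and 3.84 in groups 6 to 12, and 1.31 in group 13. Paralogue groups 1 and 2 summed to 399 to 878 CPM in NBp, with 660 CPM in replicate 2, and to 235 to 369 CPM in NNEp. Groups 3 to 5 summed to 319 to 680 CPM in 4 border libraries, 127 CPM in replicate 2, and 184 to 221 CPM in NNEp. In groups 6 to 13, 18 of 37 tested loci were higher, or 29 without NBp replicate 2, and 0 lower.

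For hoxb9 (xelaev18045992m.g), a gene of the trunk and tail, NBp had 176, 2.54, 224, 103, and 109 CPM and NNEp 1.20, 7.30, and 1.45 CPM. Replicate 2 lay within the nonneural range while the other 4 border libraries were far above it. The log2 fold change was 5.22 ± 1.25 (adjusted p = 0.00323), 5.55 without NBp replicate 2 and 6.52 without NNEp replicate 2, and it did not pass with the embryo block (adjusted p = 0.100). A gene of the hindbrain and anterior trunk, hoxd4.s, behaved alike, with 24.2, 1.10, 52.4, 29.8, and 26.4 CPM in NBp and 0.100, 1.52, and 0 CPM in NNEp (5.65 ± 1.50, adjusted p = 0.00542; 8.97 without NNEp replicate 2, 5.03 without NNEp replicate 3; adjusted p = 0.140 with the embryo block). The hindbrain gene hoxb2.l instead was highest in replicate 2, at 8.29, 11.2, 4.12, 8.62, and 3.37 CPM in NBp and 0.701, 1.04, and 0.533 CPM in NNEp (3.22 ± 0.83, adjusted p = 0.00445). The caudal gene cdx4.l, an activator of posterior hox genes, had 1067, 40.0, 1056, 665, and 661 CPM in NBp and 225, 329.7, and 375 CPM in NNEp. Border replicate 2 lay below and the other 4 above the nonneural libraries, and the log2 fold change of 1.17 ± 1.13 did not pass (adjusted p = 0.444, and 0.303 without NBp replicate 2). Summed over 6 caudal loci, replicate 2 had 78.2 CPM, the other border libraries 2058 to 3635 CPM, and NNEp 1308 to 1805 CPM.

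**Figure D4:**
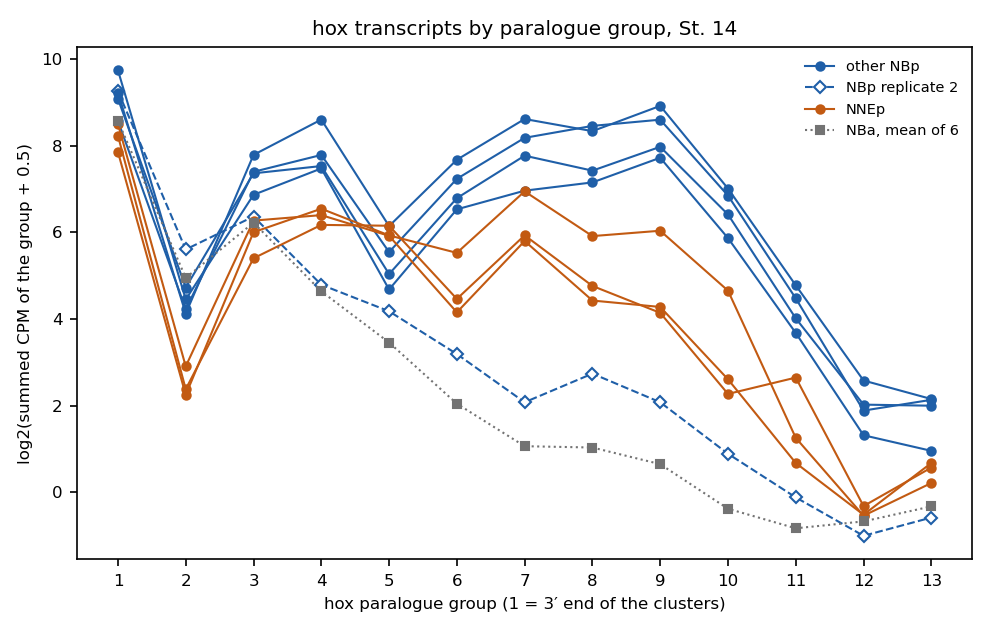
Summed level of hox transcripts by paralogue group, as log2 of CPM plus 0.5, with group 1 at the 3′ end of the clusters. Each line is a library, except the dotted line, which is the mean of the 6 NBa libraries. The 4 other border libraries lie above the 3 NNEp libraries from group 6 on. NBp replicate 2 (open diamonds) runs near the mean of NBa and falls below every NNEp library from group 4 on.

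Wnt pathway genes were mostly higher where they differed. Of 92 tested loci, 28 were higher (30.4%, against 17.8% of all loci) and 6 lower (6.52%, against 18.0%) in NBp (median 0.93). They numbered 29 and 2 without NBp replicate 2 and 16 and 0 with the embryo block. Among ligands, wnt11b.l, which signals through the planar polarity branch, had 49.5, 17.5, 36.5, 26.9, and 58.7 CPM in NBp and 0.401, 0.0948, and 0.228 CPM in NNEp. It had a log2 fold change of 7.25 ± 0.60 and shared the smallest adjusted p of the comparison (5.66e-08). The secreted agonist rspo3.l, which stabilizes Wnt receptors, had 11.8, 11.0, 12.1, 21.4, and 9.92 CPM in NBp and 0, 0, and 0.304 CPM in NNEp (6.73 ± 0.73, adjusted p = 1.47e-06). Without NNEp replicate 3, no counts of rspo3.l remain in NNEp, so the fitted value of 10.41 has no exact size. These ligands were thus at or near 0 in NNEp and present in every border library. In the anterior nonneural ectoderm the means were 7.67 CPM for wnt11b.l and 7.26 CPM for rspo3.l. Loci of wnt1, wnt8a, and rspo2 were higher as well, and loci of wnt2b lower.

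Among receptors, fzd7 (xelaev18047362m.g), which is required for crest induction, had 74.3, 139, 142, 164, and 175 CPM in NBp and 5.61, 1.04, and 3.04 CPM in NNEp (5.43 ± 0.51, adjusted p = 2.48e-07; 6.06 without NNEp replicate 1). The receptor tyrosine kinase gene ror1.l varied with the crest genes, with 6.55, 109, 3.15, 34.5, and 17.8 CPM in NBp and 0.501, 0.379, and 1.67 CPM in NNEp. Replicate 2 was again highest and replicate 4 next. The log2 fold change was 5.27 ± 0.91 (adjusted p = 0.000158), or 4.13 without NBp replicate 2 and 6.23 without NNEp replicate 3. Fzd6, rnf43, tcf7l1, and znrf3 had loci that were lower, the ubiquitin ligases rnf43 and znrf3 being known to remove Frizzled receptors. Direct targets and feedback inhibitors, namely axin2, nkd1, notum, and sp5, each had a locus that was higher.

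In the BMP pathway, 20 of 74 tested loci were higher and 10 lower in NBp. The share of higher loci was above the 17.8% of all loci. The share of lower loci was under the 18.0% of all loci. The median was 0.78, or 0.39 with loci at 0 set to their bound. The counts were 20 and 9 without NBp replicate 2 and 11 and 3 with the embryo block. The antagonist nog.1, a noggin gene, had 10.1, 3.90, 14.6, 14.0, and 7.58 CPM in NBp and none in NNEp, so that it was at least 114-fold higher (adjusted p = 1.11e-05), or 69.4-fold without NNEp replicate 3. The type I receptor gene bmpr1b.l had 51.1, 62.6, 61.4, 37.4, and 67.6 CPM in NBp and 1.90, 1.14, and 2.05 CPM in NNEp (5.03 ± 0.51, adjusted p = 8.32e-07). Its relative bmpr1a had loci that were lower. The pseudoreceptor gene bambi.s, induced by BMP, had 3.62, 3.73, 0.0808, 0.771, and 0.895 CPM in NBp and 9.62, 18.5, and 10.2 CPM in NNEp (-2.81 ± 0.66, adjusted p = 0.00223). Another BMP target, id2.s, had means of 18.3 ± 5.99 and 66.9 ± 35.98 CPM (-1.87 ± 0.45, adjusted p = 0.00258, and 0.104 with the embryo block). Loci of the ligand genes bmp7.1 and bmp7.2 were lower and those of gdf6, bmp5, admp, and admp2 higher, while bmp2 and bmp4 did not pass.

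In the FGF pathway, 13 of 43 tested loci were higher (30.2%, against 17.8% of all loci) and 2 lower (4.65%, against 18.0%), with a median of 0.83. This became 14 and 2 without NBp replicate 2 and 5 and 1 with the embryo block. The ligand gene fgf8.l, which contributes to crest induction, had 22.1, 6.45, 12.4, 5.82, and 13.3 CPM in NBp and 0, 0, and 0.380 CPM in NNEp. It was almost lacking from NNEp, with a log2 fold change of 6.30 ± 0.99 (adjusted p = 6.31e-05). Without NNEp replicate 3, no counts of fgf8.l remain in NNEp, so the fitted value of 10.28 has no exact size. The receptor gene fgfr4.l had 143, 431, 187, 321, and 279.6 CPM in NBp and 107, 31.7, and 40.6 CPM in NNEp (2.19 ± 0.47, adjusted p = 0.00112; 2.91 without NNEp replicate 1). The co-receptor gene klb.l was lower, with means of 1.32 ± 0.629 CPM in NBp and 27.3 ± 12.5 CPM in NNEp (-4.36 ± 1.03, adjusted p = 0.00234). Loci of fgfr1 were higher and of fgfr2 lower.

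Notch pathway loci were higher for 26 (59.1%, against 17.8% of all loci) and lower for 3 (6.82%, against 18.0%) of 44 tested (median 1.35). This became 28 and 4 without NBp replicate 2 and 10 and 0 with the embryo block. The fringe gene lfng.l, which tunes Notch to its ligands, had 92.9, 30.1, 136, 109, and 116 CPM in NBp and 6.11, 8.05, and 4.03 CPM in NNEp (4.00 ± 0.53, adjusted p = 9.60e-06). Ligands dll1 and dlc, the receptors notch1 and notch3, and the targets hes5.1, hes5.2, hey1, and nrarp had loci that were higher, whereas jag2, notch2, and hes7.2 had loci that were lower.

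In the retinoic acid pathway, 10 of 32 tested loci were higher (31.2%, against 17.8% of all loci) and 2 lower (6.25%, against 18.0%), with a median of 0.77. They numbered 9 and 5 without NBp replicate 2 and 4 and 0 with the embryo block. The binding protein gene crabp2 (xelaev18042772m.g) had 133, 0.339, 41.1, 42.8, and 36.6 CPM in NBp and 0.401, 0.474, and 0.152 CPM in NNEp. Replicate 2 lay within the nonneural range, and the log2 fold change was 7.21 ± 1.82 (adjusted p = 0.00382; 6.48 without NBp replicate 1; adjusted p = 0.201 with the embryo block). The gene for the degrading enzyme Cyp26c1 (loc100489980-like.l), which marks the anterior hindbrain, gave the opposite picture, with 2.86, 475, 0, 14.0, and 4.41 CPM in NBp and 0.200, 0.0948, and 1.22 CPM in NNEp. Its mean in NBp rests on replicate 2, without which the log2 fold change went from 7.50 ± 1.96 (adjusted p = 0.00479) to 3.29 (adjusted p = 0.0372). It was 9.27 without NNEp replicate 3. The 6 NBa libraries had a mean of 409.5 CPM.

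Guidance genes were higher for 20 (26.7%, against 17.8% of all loci) and lower for 8 (10.7%, against 18.0%) of 75 tested loci (median 0.41). This became 19 and 10 without NBp replicate 2 and 13 and 1 with the embryo block. The receptor gene nrp1 (xelaev18032864m.g), which binds semaphorins and VEGF, had 12.9, 23.5, 2.91, 22.3, and 6.96 CPM in NBp and 0, 0.190, and 0.0761 CPM in NNEp, a ratio of 153 (95% counting interval 52.2 to 743, adjusted p = 8.51e-05), or 315 (56.4 to 12458) without NNEp replicate 2. The semaphorin gene sema6a.l had 83.1, 70.2, 64.2, 67.5, and 52.5 CPM in NBp and 7.52, 16.6, and 13.9 CPM in NNEp (2.41 ± 0.38, adjusted p = 5.85e-05). The chemokine gene cxcl12.l, an attractant of migrating crest, was on the other side of the boundary, with 98.5, 99.3, 71.6, 83.4, and 38.2 CPM in NBp and 522, 516, and 499 CPM in NNEp. The 3 nonneural libraries were nearly equal, and the difference of -2.71 ± 0.65 passed (adjusted p = 0.00250, and 0.0506 with the embryo block). Its receptor cxcr4 did not pass.

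Of 92 tested loci of matrix, integrin, and protease genes, 23 were higher (25%, against 17.8% of all loci) in NBp. Another 12 were lower (13.0%, against 18.0%), and the median was 0.45. The counts were 21 and 14 without NBp replicate 2 and 14 and 5 with the embryo block. The membrane protease gene mmp14.l had 151, 177, 80.5, 119.9, and 112 CPM in NBp and 8.72, 15.8, and 8.44 CPM in NNEp (3.54 ± 0.42, adjusted p = 3.15e-06). Laminin chains were divided between the tissues. The locus lama1-like.l had 22.2, 58.4, 29.8, 56.8, and 30.1 CPM in NBp and 0.701, 0.663, and 0.837 CPM in NNEp (5.72 ± 0.75, adjusted p = 9.09e-06), whereas lama5 (xetrov90024626m.s) had means of 1.55 ± 1.11 CPM in NBp and 17.0 ± 7.75 CPM in NNEp (-3.45 ± 0.52, adjusted p = 4.33e-05). The integrin gene itga3.l, for a laminin receptor chain, had means of 5.81 ± 1.804 and 51.3 ± 16.2 CPM (-3.14 ± 0.46, adjusted p = 2.91e-05), and dag1.l, for the laminin receptor dystroglycan, had 16.7 ± 8.50 and 142 ± 67.5 CPM (-3.08 ± 0.54, adjusted p = 0.000176).

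Metabolic genes gave calls in both directions. Of 43 tested loci of serine and asparagine synthesis, amino acid transport, and glycolysis, 5 were higher (11.6%, against 17.8% of all loci) and 9 lower (20.9%, against 18.0%) in NBp (median -0.56), with 5 and 15 without NBp replicate 2 and 1 and 2 with the embryo block. The amino acid transporter gene slc7a5.1 had 15.7, 59.9, 10.9, 21.0, and 15.2 CPM in NBp and 228, 201, and 135 CPM in NNEp (-2.94 ± 0.59, adjusted p = 0.000670; -3.57 without NBp replicate 2). The sugar transporter gene slc2a12.l had means of 3.09 ± 1.83 and 60.7 ± 6.52 CPM (-4.29 ± 1.06, adjusted p = 0.00319, and 0.0906 with the embryo block). The gene pfkfb3.s, for an enzyme that raises the glycolytic rate, had 189.6, 14.2, 213, 109.7, and 175 CPM in NBp and 26.8, 19.4, and 29.9 CPM in NNEp, with replicate 2 below the nonneural libraries and the rest above (2.47 ± 0.61, adjusted p = 0.00330, and 0.344 with the embryo block).

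Cell cycle genes differed by little and almost all in 1 direction. Of 73 tested loci, 29 were higher (39.7%, against 17.8% of all loci) and 1 lower in NBp (median 0.63). The counts were 30 and 2 without NBp replicate 2 and 22 and 0 with the embryo block. Those that were higher included loci of the replication genes mcm2, mcm4, mcm5, mcm6, mcm7, and pcna and of the mitotic genes aurka, ccna2, ccnb2, and plk1. The locus that was lower belongs to ccna1.

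Markers of other tissues that a fragment could carry are also given. Of these lists only that of mesoderm had a share of higher loci well above the share over all loci. Of 59 tested mesoderm loci 18 were higher (30.5%, against 17.8% of all loci) and 0 lower in NBp. Their median was 1.86, or 1.50 with loci at 0 set to their bound. The whole list summed to 251 to 538 CPM in NBp and 127 to 192 CPM in NNEp. A core set held 10 mesoderm loci, 9 of them tested. Its sum was 43.3 to 178 CPM in NBp, 8.22 to 25.6 CPM in NNEp, and 53.9 to 185 CPM in posterior neural plate (NPp). Most of the sum came from the brachyury gene t in every border library except replicate 2. There t.s had 3.14 CPM, against at least 44.2 CPM in the other border libraries. For the actin gene actc1, replicate 2 was instead the highest border library, with actc1.l at 18.8 CPM there and at most 11.6 CPM in the others. The muscle regulator gene mef2d (xetrov90022298m.s) had means of 5.78 ± 1.51 CPM in NBp and 0.936 ± 0.204 CPM in NNEp (2.61 ± 0.62, adjusted p = 0.00234). Of 27 notochord and organizer loci, 5 were higher (18.5%, near the 17.8% of all loci) and 0 lower. Their median was 2.01, or 1.74 with loci at 0 set to their bound. The whole list summed to 28.8 to 194 CPM in NBp and 2.104 to 5.25 CPM in NNEp, and a core set of 9 to 10.5 to 172 CPM in NBp and 0.501 to 2.89 CPM in NNEp. Most of the core sum came from the not genes, which are also expressed in posterior neural tissue, in every border library except replicate 2. In replicate 2 not.s had 0.933 CPM and foxa2.s 7.21 CPM. The L copy, not.l, had 38.5, 0.339, 39.2, 17.2, and 63.3 CPM in NBp and 0, 0.0948, and 0.304 CPM in NNEp (7.68 ± 1.54, adjusted p = 0.000642; 9.103 without NNEp replicate 3). Of 14 tested endoderm loci 2 were higher and 2 lower (14.3% each, under the shares over all loci). The whole list summed to 304 to 494 CPM in NBp and 34.6 to 53.2 CPM in NNEp. Core endoderm markers of the sox17 and gata families summed to 0.551 to 5.60 CPM in NBp and 0.190 to 1.60 CPM in NNEp, so that nearly all of the list's sum lay outside the core set. Of 37 placode loci 3 were higher (8.11%) and 6 lower (16.2%), both under the shares over all loci. The part of attached mesoderm, notochord, or endoderm in the border values was not tested.

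Whether the boundary at trunk level differs from that at head level was asked of the interaction (NBp minus NNEp) minus (NBa minus NNEa), with 6 libraries of NBa and 3 of the anterior nonneural ectoderm (NNEa). NBa replicates 5 and 6 share an embryo number, and for NBa replicate 1 the labels give none. The interaction passed for 149 of 22,143 loci (0.673%), 132 (0.596%) with a larger and 17 (0.0768%) with a smaller value at trunk level. Without NBp replicate 2 it passed for 250 loci, and with the embryo block for 11. With limma-voom it passed for 63, of which 34 had larger and 29 smaller values at trunk level, so that the excess of larger values was not kept there. By list, 9 of 41 loci of border genes, 5 of 92 of the Wnt and 5 of 74 of the BMP pathway, 4 of 53 of the plate, 3 of 92 of matrix genes, and 2 of 43 of the FGF pathway passed. The crest, cadherin, placode, and notochord lists had 1 each, all of these calls with larger values at trunk level. The remaining lists had 0, and at a share of 0.673% over all loci that count sets none of them apart.

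Genes of the Zic family were among them. For zic1.l, NNEa had 87.0, 130, and 216 CPM where NNEp had at most 2.61 CPM, while the borders were alike (means of 274 CPM in NBa and 155 CPM in NBp). The trunk difference of 6.89 thus stood against 0.92 at the head, an interaction of 5.97 ± 0.81 (adjusted p = 0.000322), which also passed with the embryo block and missed with limma-voom (adjusted p = 0.0621). For zic5.l the interaction was 4.31 ± 0.68 (adjusted p = 0.00109). The SoxE gene sox9.s, at a mean of 277 CPM in NNEa and 1.85 CPM in NNEp, had an interaction of 5.90 ± 1.23 (adjusted p = 0.0189), and sox11.l, at 192 and 12.5 CPM, 4.04 ± 0.60 (adjusted p = 0.000900). Of these, only zic1.l passed with the embryo block, and zic5.l and sox9.s missed with limma-voom (adjusted p = 0.0957 and 0.210). In each of them the nonneural fragments differed more along the axis than the border fragments did. NNEa as dissected held RNA of border genes, and whether it included border or placodal cells was not tested.

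Wnt components also passed. The interaction was 5.48 ± 0.66 for wnt11b.l (adjusted p = 7.67e-05) and 4.20 ± 0.57 for fzd7 (xelaev18047362m.g; adjusted p = 0.000321), both of which passed with the embryo block. It was 4.96 ± 0.83 for rspo3.l (adjusted p = 0.00235) and 4.51 ± 1.03 for ror1.l (adjusted p = 0.0372), neither of which passed with the embryo block or with limma-voom (adjusted p = 0.0621 and 0.371). A different pattern was seen for fgf8.l, which was higher in NBp (mean 12.0 CPM) than in NBa (2.35 CPM) and lower in NNEp (0.127 CPM) than in NNEa (5.32 CPM), so that the difference had opposite signs at the levels (6.30 and -1.17, interaction 7.47 ± 1.15, adjusted p = 0.00108). The kinase activator gene cdk5r1.s, with means of 52.9 CPM in NBp, 1.97 CPM in NNEp, 63.9 CPM in NBa, and 38.2 CPM in NNEa, had an interaction of 4.00 ± 0.48 (adjusted p = 7.67e-05). The exchange factor gene fgd6.l, with means of 55.2, 7.41, 39.9, and 28.3 CPM in the same order, had 2.40 ± 0.30 (adjusted p = 9.71e-05). The interactions of cdk5r1.s and fgd6.l held with the embryo block, and that of fgf8.l did not.

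Among the 17 loci with a smaller value at trunk level was emx2 (xelaev18036663m.g), a homeobox gene best known from forebrain and urogenital tissue. NNEp had 86.3, 101, and 29.7 CPM and NBp 4.18, 2.63, 1.37, 0.421, and 1.10 CPM, whereas NBa did not exceed 5.22 CPM and NNEa 0.867 CPM. Of these 4 regions only NNEp exceeded 6 CPM. The trunk difference was -5.21 ± 0.83 (adjusted p = 7.31e-05) and the interaction -6.88 ± 1.26 (adjusted p = 0.00576), which did not pass with the embryo block.

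**Figure D5:**
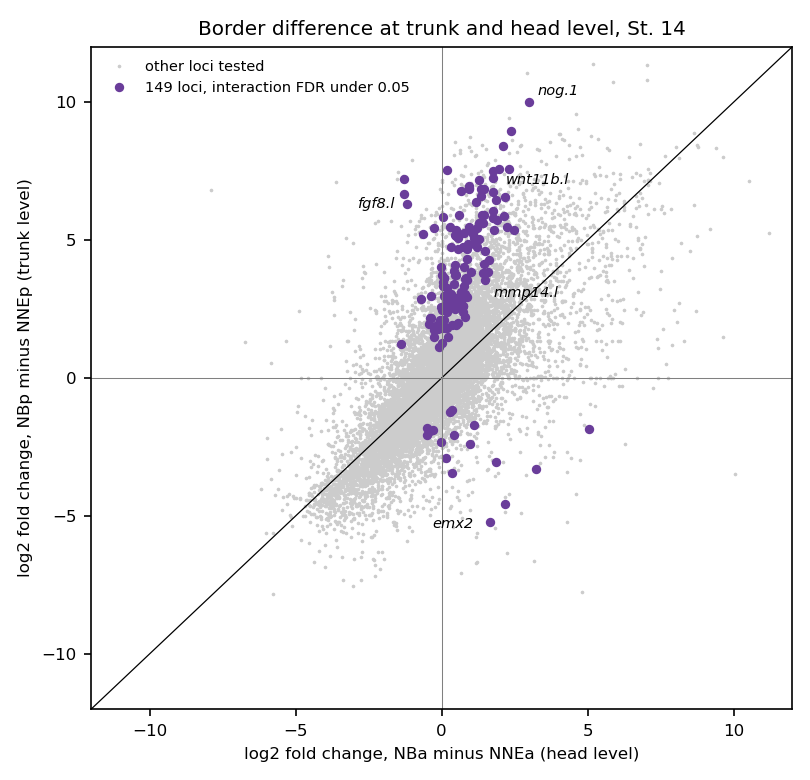
Log2 fold change at trunk level (NBp minus NNEp) against that at head level (NBa minus NNEa) for each tested locus, with the line of equal values. Purple points are the 149 loci whose difference between the levels passed an FDR of 0.05, 132 above and 17 below the line. The locus wnt11b.l lies at 7.25 on the trunk axis and 1.77 on the head axis, and emx2 lies at -5.21 on the trunk axis.

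The border can also be set beside the tissue on its other side. NBp and NPp differed at 2629 loci (11.9%), 1434 (6.48%) higher and 1195 (5.40%) lower in the border, and since both comparisons use the NBp libraries, only values side by side are given. Without NBp replicate 2, 2016 loci passed, 1040 higher and 976 lower. The list counts and the differences from NPp below are with all 5 NBp libraries, replicate 2 among them. Of 35 tested crest loci, 21 were higher and 0 lower in NBp than in NPp (median 2.94). Among them were snai2 (xelaev18031998m.g), at means of 452 CPM in NBp, 3.92 CPM in NNEp, and 19.4 CPM in NPp (NBp minus NPp 4.54, adjusted p = 0.00344) and twist1.l, at 20.6, 0, and 0.275 CPM (6.18, adjusted p = 0.00286). With replicate 2 left out, the NBp means were 298 CPM for snai2 and 6.56 CPM for twist1.l, and for the plate gene rfx4.l 50.1 CPM. The border gene zic1.l differed from the plate by 3.48 (adjusted p = 0.000297) and pax3 (xelaev18027783m.g) by 1.62 (adjusted p = 0.0328). Of 53 plate loci 16 were lower and 0 higher in NBp than in NPp (median -1.51). For rfx4.l the means were 198 CPM in NPp, 41.9 CPM in NBp, and 0.668 CPM in NNEp (NBp minus NPp -2.24, adjusted p = 0.0115), whereas for sox11.l (236 and 202 CPM) and cdh2 (xelaev18031953m.g; 137 and 103 CPM) the difference from the plate did not pass (adjusted p = 0.739 and 0.657). On the epidermal side, cdh1.s had means of 79.5 CPM in NPp, 285 CPM in NBp, and 1186 CPM in NNEp and so was intermediate in the border (NBp minus NPp 1.84, adjusted p = 0.00572), and tfap2c (xelaev18046210m.g), level with NNEp, was higher than in NPp (54.9 CPM) by 2.96 (adjusted p = 0.00132).

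Homeologs mostly moved together where both passed. Of 4750 pairs of L and S copies tested, 959 passed for both copies with the same sign, 50 with opposite signs, and 1625 for 1 copy only, and for 2116 neither copy passed. Because only uniquely placed read pairs were counted, copies that are nearly identical can lose fragments unequally, and the level of any single copy is less certain than the direction shared by both.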

How the data were processed

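The authors made the libraries with a stranded mRNA kit and sequenced them as read pairs of 100 bp. They aligned the pairs with TopHat2 2.0.14 to the X. laevis 9.1 genome, excluded multiply mapped pairs, and counted fragments per locus with HTSeq. The deposited values are whole-number counts that were not normalized. The 5 HTSeq summary rows, which name no gene, made up 16.0% to 19.7% of each of the 8 libraries and were left out.

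Here a locus was tested if 2 or more of the 29 libraries from 7 St. 14 regions had over 10 counts, and all were fitted in edgeR 4.0.16 (R 4.3.3) with TMM scaling and 1 mean per region. Contrasts were tested with the quasi-likelihood F test at a Benjamini-Hochberg FDR of 0.05 over all loci tested, and adjusted p stands for this FDR. The 6 libraries of undivided St. 14 border and plate did not enter the fit. Levels are CPM scaled by TMM. Counting intervals and floors (3 counts over a group) cover counting error only. Lists are described by counts and medians, without a set test. Named loci are those with the smallest p in 24 gene lists, up to 6 per direction and up to 4 that did not pass, the 15 largest differences and the 5 smallest p per direction, of which a selection is printed, together with loci of the interaction. The interaction loci emx2, fgd6.l, and cdk5r1.s and the selection were chosen after their values were seen. Members and lists were chosen with earlier results of these data known.

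Embryo numbers in the labels pair fragments of the same animal. Over 10,771 loci, 28 of 51 pairs of libraries from the same embryo deviated together with r above 0.1 (median 0.109, against -0.006 for other pairs), and the embryo was run as a replicate block. Among same-embryo pairs r ran from -0.438 to 0.582. It was 0.0317 for NBp replicate 2 and NNEp replicate 1, which share an embryo. Other alternatives were limma-voom (limma 3.58.1), DESeq2 1.42.0, other size factors and filters, other sets of libraries, the library prefix, and leaving out each library. Some list members are not reported here. Gene names come from the count table and the paper's annotation. Chromosome positions are not given, since no annotation of this build was used here.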

Additional observations from a re-analysis of the deposited data

Results flagged for a closer look

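In 18 of the 89 loci examined in the text, 1 NBp library lay apart from the other 4 on the log2 scale by Dixon's ratio (the gap to the nearest library over the whole range, critical value 0.710 for 5 libraries), where chance alone gives about 1 in 20 independent groups. The loci were selected and share the same libraries, so they are not independent and the count is no test against that rate. Of these, 13 concern NBp replicate 2, which was low in 12. It was low for the neural genes sox2.1 (0.771), foxd4l1.1.l (0.783), rfx4.l (0.759), zeb2 (xelaev18044550m.g, 0.824), vstm2b.l (0.846), pcdh19 (xelaev18042154m.g, 0.830), and lfng.l (0.747). It was also low for the axial genes hoxb9 (xelaev18045992m.g, 0.820), hoxd4.s (0.782), and cdx4.l (0.854), and for crabp2 (xelaev18042772m.g, 0.748) and pfkfb3.s (0.754). It was high for the cilium gene ift88.s (0.727).

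NBp replicate 1 was high for gfi1b.l, where it was the only library with counts (1), and for foxa1.l (0.761), and low for fzd7 (xelaev18047362m.g, 0.733). NBp replicate 4 was high for rspo3.l (0.742), and replicate 5 was low for myod1.s (0.837).

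The difference between border and nonneural ectoderm was itself different at trunk and head level for 18 of the loci in the text, by the interaction test. The log2 interaction was 5.97 for zic1.l, 4.31 for zic5.l, 2.70 for msx2.s, 5.90 for sox9.s, and 4.04 for sox11.l. For signalling genes it was 5.48 for wnt11b.l, 4.20 for fzd7 (xelaev18047362m.g), 4.96 for rspo3.l, 4.51 for ror1.l, 3.75 for bmpr1b.l, 7.47 for fgf8.l, and 2.58 for fgfr4.l. It was 7.01 for nog.1, which has no counts in NNEp, so that this fitted value has no exact size. It was 2.05 for mmp14.l, 3.81 for lama1-like.l, 2.40 for fgd6.l, and 4.00 for cdk5r1.s, and -6.88 for emx2 (xelaev18036663m.g). With the embryo block 5 of the 18 passed, those of zic1.l, wnt11b.l, fzd7, fgd6.l, and cdk5r1.s, and the other 13 did not (adjusted p from 0.0636 for bmpr1b.l to 0.448 for fgfr4.l). Without NBp replicate 2, those of fgfr4.l and mmp14.l missed (adjusted p = 0.0501 and 0.0571).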

How the results depend on the processing

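The count of 7913 loci that differ between NBp and NNEp stayed between 5955 and 8403 under other size factors, tests, and filters, with the prefix as a covariate, with the NNEp libraries of 1 embryo summed, and with fewer or more groups in the fit. It was 5991 to 7905 when each library was left out. It dropped to 3177 with the embryo as a replicate block, 4718 with only the prefix B108, and 2263 with only B108 and without NBp replicate 2, an alternative added after seeing the data that leaves 1 border library, assumed to vary like the other groups. The last 2 have fewer samples, and the cause of the drop with the block was not tested. The axis interaction passed for 149 loci, for 11 with the embryo block, 63 with limma-voom (34 larger and 29 smaller at trunk level, against 132 and 17), and 250 without NBp replicate 2, and for 128 and 146 loci under the other alternatives. NBp against NPp gave 2629 loci and 1947 to 3189 under the alternatives.

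Of the 89 loci in the text, 86 kept their direction and 52 also their call under every alternative. The direction turned with the embryo block for tfap2c (xelaev18046210m.g, 0.0188), krt12.s (0.13), and itln1.l (0.49), and with only prefix B108 for tfap2c (0.0329), none of which passed at first. The block ended 18 calls and reversed none that had passed. Limma-voom ended 8, those of myod1.s, foxd4l1.1.l, olig4.l, not.l, pcdh19, crabp2, cyp26c1, and hoxd4.s, DESeq2 that of gfi1b.l, the fit of the 2 regions alone that of cyp26c1, the prefix covariate that of krt5.7.l, and only prefix B108 5, those of krt5.7.l, pcdh7.s, cxcl12.l, slc2a12.l, and pfkfb3.s. Prefix B108 without NBp replicate 2 ended 18 calls. Of the 18 interactions in the text 5 passed with the block and 10 with limma-voom. With 3 NNEp libraries, 2 of them from 1 embryo, a locus that did not pass may still differ, and levels near the floor of 3 counts (0.0891 CPM over NNEp) have no exact fold change.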

Other observations

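Some loci shared an order among the NNEp libraries. The loci foxa1.l, of the secretory and endoderm lists, and gfi1b.l, of the ionocyte list, were both highest in NNEp replicate 2 (39.4 and 34.7 CPM). Both were lowest in replicate 3 (9.28 and 6.39 CPM). The same order held for gata2 (xelaev18025905m.g), emx2 (xelaev18036663m.g), and id2.s, which are not in the lists of specialized cells. They had 260.3, 101, and 105 CPM in replicate 2 and 60.3, 29.7, and 33.3 CPM in replicate 3. Some other loci of specialized cells shared it, among them tp73.l, myb.s, and atp6v1c2.l. They had 22.9, 15.8, and 103 CPM in replicate 2 and 9.59, 9.43, and 52.9 CPM in replicate 3. Others did not share it. The secretory gene itln1.l was highest in replicate 3 (4035 CPM, against 2208 and 2368 CPM in replicates 1 and 2), as was ift88.s (48.9, against 43.7 and 43.3 CPM), and the ionocyte gene ca12.l was lowest in replicate 1 (72.1 CPM). Replicates 2 and 3 came from the same embryo, so these differences lie between fragments of 1 animal. These loci were picked after their values were seen, and no test was made.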
